A study of Mus musculus with 24 samples.

Results

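Stromal cells of wild-type C57BL/6 mouse kidneys were compared at E13.5 and E12.5 (embryonic days), a step of 1 day in normal development. The comparison uses 6 of the 24 libraries of the series, namely the 3 labelled wild-type, C57BL/6, E13.5 and the 3 labelled wild-type, C57BL/6, E12.5, and all 13803 genes of the deposited table. The cells were sorted by fluorescence from kidneys that the series text describes as FoxD1Cre-eGFP, so that, as that text reads, the wild-type cells carry the Cre and green fluorescent protein construct as well. FoxD1Cre marks cells that express, or descend from cells that expressed, the stromal transcription factor gene Foxd1. The other libraries are wild-type CD1 stroma, C57BL/6 stroma deficient in beta-catenin (β-catSD) and CD1 stroma with stabilised beta-catenin (β-catSO), with 3 libraries for each at E12.5 and at E13.5. According to the series text 3 kidneys of a genotype were used. The spread of each gene was estimated from all 24 libraries within their 8 groups. Nothing in the labels ties a library to its own embryo or litter, and p-values then measure only how far the libraries of the fit spread, which may be technical. The protocol mentions a second sort for some cells, without saying for which libraries.

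The renal stroma begins as Foxd1-expressing mesenchyme that surrounds the nephron progenitors and the branching ureteric bud. Its descendants include the interstitial fibroblasts of cortex and medulla, pericytes, mesangial cells, renin cells and vascular smooth muscle. Stromal cells also send signals to nephron progenitors and ureteric bud, among them retinoic acid, and lay down the matrix in which tubules and vessels grow.

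The depth of the 6 libraries, summed over the genes, was 7.08 to 12 Mreads (mega-reads), with the 3 E13.5 libraries below the 3 E12.5 libraries in depth. Foxd1 was high in each library, at log2 CPM (counts per mega-read, on a log2 scale) of 9.22, 9.11 and 8.85 at E12.5 and 8.74, 8.77 and 8.78 at E13.5, replicates 1 to 3 in order. The summed CPM of 18 cortical and progenitor stroma genes ran from 8005 to 8961 at E12.5 and from 8222 to 8597 at E13.5. E12.5 replicate 3 stood apart: on the first principal component of the 6 libraries (32.4% of the variance) it lay at 75, and the other 5 lay between -47.4 and 7.76. The second component (25.9%) held the E12.5 libraries between -45.2 and -21 and the E13.5 libraries between 20.7 and 38.9. Without E12.5 replicate 3, limma called 605 genes in place of 546, of which 398 were shared.

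RNA of other cell types was present at different levels in different libraries. The summed CPM of 11 liver genes was 4902 in E12.5 replicate 3 and 16.07 to 20.4 in the other 5 libraries, and albumin (Alb) had log2 CPM 10.44 in that library and -4.35 to 1.93 in the others. The 16 macrophage and immune genes summed to 135.7, 150.8 and 840.2 at E12.5 and to 372.8, 230.2 and 231.8 at E13.5. The 9 erythroid genes summed to 721.5, 850.6 and 583.3 at E12.5 and to 67.77, 53.31 and 1199 at E13.5, so that E13.5 replicate 3 was the highest of all and replicates 1 and 2 the lowest. The 16 endothelial genes ran from 95.56 to 264.6 at E12.5 and from 195 to 205.7 at E13.5, and the 14 ureteric bud genes from 55.88 to 97.63 and from 65.12 to 71.52. No member of the liver, macrophage, erythroid, endothelial, ureteric bud, neural or adrenal lists was called in either direction. With libraries this spread, the lack of a call does not show equal levels. The median difference was -2.12 in the liver list and -1.88 in the erythroid list, and Alb had -2.52 ± 2.91 (SE). Xist, transcribed from the inactive X chromosome, was lower in E13.5 replicates 1 and 3 (log2 CPM 6.45 and 3.99) than in E13.5 replicate 2 (9.02) and the E12.5 libraries (9.34, 9.50 and 9.30), and the Y-linked Kdm5d was higher in those 2 (5.13 and 5.24 against 3.83 to 4.20). The part of these sex-linked differences in the results below was not tested. A fit with the means of the macrophage, endothelial, erythroid and liver lists as covariates called 184 genes.

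**Figure D1:**
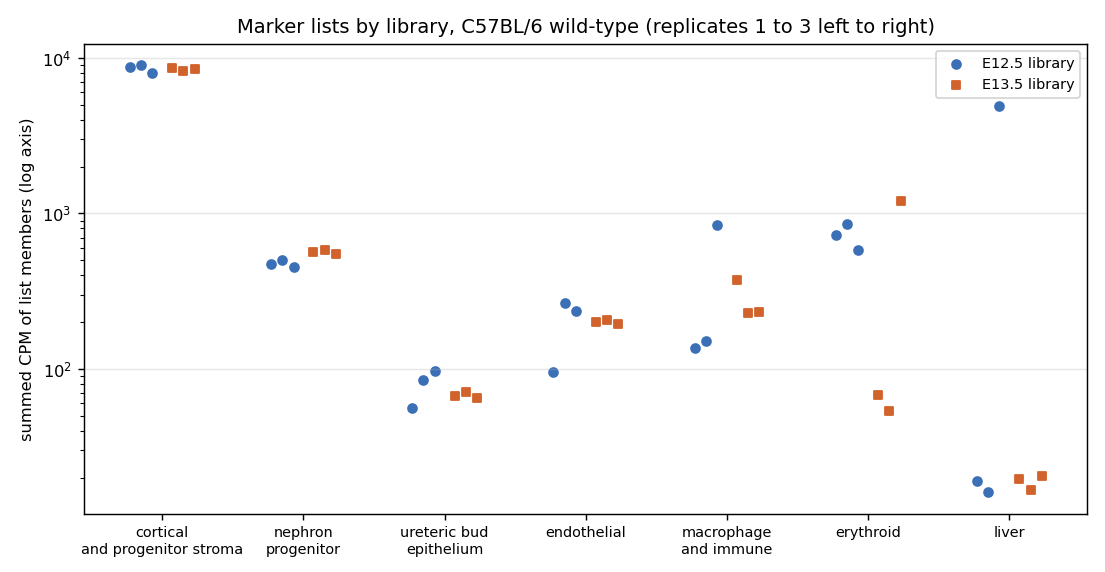
Summed CPM of marker lists (log axis) in each C57BL/6 wild-type library, with circles for E12.5 and squares for E13.5. The liver list is at 4902 in E12.5 replicate 3 and at most 20.4 elsewhere, and the stromal list stays between 8005 and 8961.

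From E12.5 to E13.5, 287 genes rose and 259 fell, which is 3.96% of the 13803 genes tested (2.08% higher and 1.88% lower). Calls rest on limma, on p-values adjusted by Benjamini-Hochberg over all genes and a threshold of 0.05, without a minimum fold. At least 2-fold changes made up 130 of the calls, 73 up and 57 down, and the median absolute difference of called genes was 0.589 on the log2 scale. The 3 E13.5 libraries all lay beyond the 3 E12.5 libraries in 543 of the 546 called genes, against 24.5% of all genes tested. The majority of rises turned to one of falls without E13.5 replicate 1 (253 higher and 301 lower), replicate 2 (91 and 107) or replicate 3 (38 and 45), and with quantile normalization (239 and 243), the covariates (61 and 123) or library quality weights (515 and 533). The number of calls depended on single libraries as well, at 165 and 114 without E12.5 replicate 1 or 2 and 198 and 83 without E13.5 replicate 2 or 3. All 546 called genes kept their sign in each of the 6 fits that leave out 1 library. For the 543 whose stages did not overlap this was fixed in advance, since leaving out a library cannot turn their sign. Of 141 genes picked by a fixed rule from the size of the change and from gene lists, 97 were called, and 32 of these 97 kept their call with the covariates. The calls of Abcc9, Col9a1, Dkk1, Epha7, Gas1, Heyl, Kcnj8, Nhp2, Prdm6, Spry4, Tbx1 and Trp53inp1 held under all 14 alternatives followed gene by gene. A 2-fold minimum, which Epha7, Gas1, Nhp2, Spry4 and Trp53inp1 did not reach, and a filter on mean log2 CPM are not among the 14. In what follows a call is said to end without a library when the fit that leaves it out gives an adjusted p of 0.05 or more. Each count of list members called is to be read beside the 2.08% higher and 1.88% lower over all genes. No list was tested as a set. Exons of Asic4, Bcl11a, Bmp5, Ccna2, Ccnd1, Cdc20, Gas1, Gdf5, Gli3, Gnl3, Hhip, Mcm7, Mest, Nhp2, Nnat, Notch1, Rpl18, Slc26a1, Spry1, Tbx18, Tgfb2 and Tgfb3 overlap a gene on the other strand, so without a stated strand of counting their reads cannot be told apart from that gene.

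The smallest adjusted p (0.0012) was shared by 6 genes, of which Camk2n1, Scube1, Fhl2 and Frmd4b were named after their values were seen. Scube1, a secreted and cell-surface protein with EGF repeats (chromosome 15, 83604999 to 83725021, mm10), had log2 CPM 8.06, 8.12 and 7.69 at E12.5 and a mean of 6.99 ± 0.0088 (SD, n = 3) at E13.5, a fall of 0.96 ± 0.13 (SE). Camk2n1, an inhibitor of the calcium and calmodulin dependent kinase CaMKII, went from 4.60, 4.86 and 4.88 to 6.06, 6.15 and 6.28, a difference of 1.38 ± 0.19. Fhl2, a LIM-domain cofactor, went from 5.77, 5.64 and 5.97 to 7.09, 7.11 and 7.11, a difference of 1.31 ± 0.19. In each of these genes the libraries of the stages were apart by more than their spread within a stage. The genes were chosen by adjusted p from the same values, so this separation adds no support. Frmd4b, which encodes a FERM-domain protein, fell by 1.06 ± 0.15, from 5.07 ± 0.09 to 4.01 ± 0.21 (SD, n = 3 each). The remaining members of the 6 were Tbx1 and Heyl, described below. The calls of all 6 held without any 1 library (adjusted p up to 0.0159).

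The largest rises came from genes of different kinds. Igfbp6, a binding protein for insulin-like growth factors (chromosome 15, 102144362 to 102149511), had log2 CPM -2.76, -0.20 and 1.45 at E12.5 and 3.88, 3.94 and 4.32 at E13.5, which correspond to 1, 10 and 33 reads and to 102, 140 and 170 reads. The E13.5 libraries lay close together and the E12.5 libraries were spread, so the difference of 4.55 ± 0.87 (adjusted p = 0.00697) depends on the 0.5 added to each count. Penk, which encodes proenkephalin and marks medullary stroma, had 0.61, 1.52 and 1.21 at E12.5 and 4.01, 3.56 and 3.16 at E13.5, a rise of 2.46 ± 0.62 (0.0282). Its exons overlap A830012C17Rik on the other strand, and the strand of counting is not given in the sources used here. Aox3, an aldehyde oxidase, rose by 2.81, the metalloreductase gene Steap4 by 2.03 and Gbgt1, a glycosyltransferase of Forssman glycolipid synthesis, by 2.34. Megf11, which encodes a membrane protein of the MEGF family, rose by 2.29, the serine protease family gene Prss35 by 2.23 and Ankrd63 by 2.36. Apela, a peptide ligand of the apelin receptor, rose by 1.88, C1qtnf3, a secreted C1q-related protein, by 1.82 and Igfbp7 by 1.76. Igfbp6, Igfbp7 and Ankrd63 kept their calls without any 1 library (adjusted p up to 0.0471), but none of them kept it under all 14 alternatives. The calls of Penk, Gbgt1, Prss35 and Steap4 ended without any library except E12.5 replicate 3 (up to 0.104, 0.172, 0.205 and 0.209). Those of Aox3, Apela and C1qtnf3 ended without E12.5 replicate 1 or 2 or E13.5 replicate 2 or 3 (up to 0.138), and that of Megf11 without E12.5 replicate 1 or E13.5 replicate 3 (up to 0.0755).

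The largest falls were of different kinds too. Tbx1, a T-box transcription factor gene (chromosome 16, 18580979 to 18590671), had log2 CPM 3.21, 3.36 and 3.02 at E12.5 and 1.41, -0.11 and 0.43 at E13.5, a difference of -2.62 ± 0.38 (adjusted p = 0.0012). Col9a1, a chain of the cartilage collagen type IX (chromosome 1, 24177610 to 24252684), went from 6.34, 6.00 and 5.38 to 4.04, 3.96 and 3.55, a difference of -2.06 ± 0.37 (0.00463). Prdm6, a PR-domain regulator known from smooth muscle, went from 4.01, 4.38 and 3.52 to 2.77, 1.83 and 1.83, a difference of -1.83 ± 0.31 (0.0036). These 3 genes held their calls under all 14 alternatives. Mgam, maltase-glucoamylase, had a difference of -2.77, Gdf5, a ligand of the bone morphogenetic protein family, -2.21, and Bcl11a, a zinc finger transcription factor, -1.75. The channel gene Asic4 had -1.75, the axonemal dynein gene Dnah7b -1.69, the sulfate transporter gene Slc26a1 -1.63 and Gp1bb -1.58. Dnah7b is near-identical in sequence to 2 other loci (Dnah7a and Dnah7c) and Gp1bb shares exons with Sept5, so their counts are uncertain. Calls ended for Mgam and Gdf5 without E12.5 replicate 1 or 2 or E13.5 replicate 2 or 3 (adjusted p up to 0.175 and 0.13), for Bcl11a without E12.5 replicate 2 or E13.5 replicate 3 (0.0721) and for Asic4 without E12.5 replicate 1 or E13.5 replicate 3 (0.0739). The Dnah7b call ended without any library except E12.5 replicate 3 (0.158), that of Slc26a1 without any except E13.5 replicate 1 (0.12) and that of Gp1bb without any one of the 6 (0.219).

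**Figure D2:**
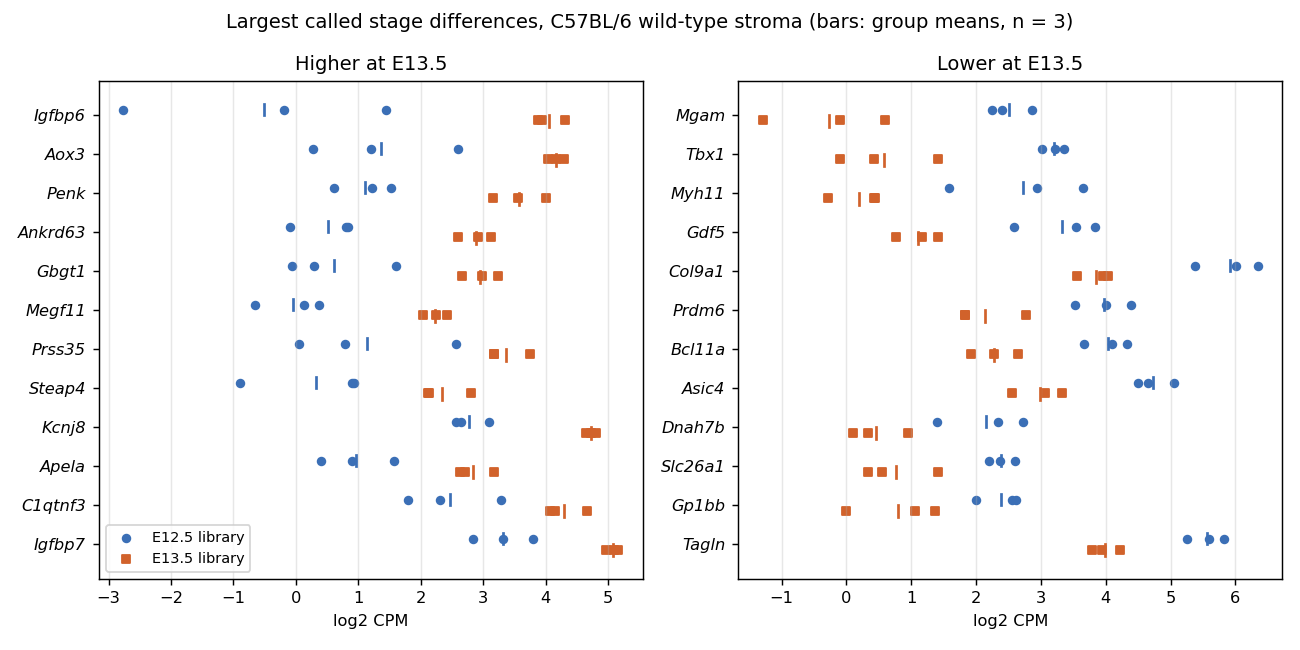
Log2 CPM in each library for the 12 largest rises (left) and the 12 largest falls (right) among called genes of mean log2 CPM above 1 whose stages did not overlap, with circles for E12.5, squares for E13.5 and bars for group means. Igfbp6 has the largest rise, at 4.55, with E12.5 libraries spread from -2.76 to 1.45, and Mgam the largest fall, at -2.77, among genes with a mean log2 CPM above 1.

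Genes that define the stroma itself mostly did not pass the test. In the list of 18 genes of cortical stroma and its progenitors, 2 rose and 1 fell, with a median difference of -0.0632 (-0.0259 to -0.176 without each library) against 0.00101 over all genes. The transcription factor genes had differences of -0.29 for Foxd1 (adjusted p = 0.28), 0.03 for Tcf21 (0.953) and -0.29 for Meis1 (0.223). Gas1, a membrane protein that binds Hedgehog ligands (chromosome 13, 60174405 to 60177365), had log2 CPM 8.77, 8.80 and 8.60 at E12.5 and 8.08, 7.98 and 7.96 at E13.5, a fall of 0.72 ± 0.11 (0.00168). Its libraries did not overlap and it kept its call under all 14 alternatives. Ntn1, which encodes netrin 1, went from 8.69, 8.74 and 9.15 to 9.85, 9.63 and 9.76 (0.89 ± 0.20, adjusted p = 0.0182), and Smoc2, a matrix-associated calcium-binding protein, rose by 1.54 ± 0.38 (0.0267). Without E12.5 replicate 3 the list had 2 rises and 2 falls, and without E12.5 replicate 1 or 2 or E13.5 replicate 3 it had 0 rises and 1 fall. The Ntn1 call ended in those 3 fits (up to 0.0877) and that of Smoc2 without any library except E12.5 replicate 3 (0.11). Of 12 medullary stroma genes, Penk was the 1 that was called, while Alx1, a homeobox gene, had -0.32 (0.811) and Lef1, a transcription factor of Wnt signalling, 0.78 (0.317).

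Markers of more differentiated interstitium had mostly positive differences in C57BL/6. Of 14 genes of the nephrogenic interstitium, 2 rose, 1 fell and 12 had a positive difference, with a median of 0.543 (0.352 without E12.5 replicate 2). In CD1 the same list had 0 rises, 1 fall and 9 positive differences, with a median of 0.0669. No member was called without E12.5 replicate 1 or 2 or E13.5 replicate 3, and 3 rose and 1 fell without E12.5 replicate 3. Ogn, which encodes the small proteoglycan osteoglycin, had log2 CPM 3.62, 3.20 and 4.19 at E12.5 and 5.52, 5.15 and 5.29 at E13.5 (1.65 ± 0.38, adjusted p = 0.0188). Postn, which encodes periostin, went from 7.16, 7.21 and 7.74 to 9.08, 8.69 and 8.14 (1.27 ± 0.36, 0.0494), with E12.5 replicate 3 and E13.5 replicate 3 nearest to each other. Cxcl12, a chemokine gene, fell by 0.51 ± 0.14 (0.0409). Dcn, the decorin gene, had 1.01 ± 0.33 and missed the threshold (0.087). The Ogn call ended without E12.5 replicate 1 or 2 or E13.5 replicate 3 (up to 0.109), and those of Postn and Cxcl12 without any library except E12.5 replicate 3 (up to 0.168 and 0.157).

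A part of the pericyte genes rose. Of 15 pericyte, mesangial and renin cell genes measured, 5 rose and 0 fell, with a median difference of 0.412 against 0.00101 over all genes. Kcnj8 and Abcc9, neighbours on chromosome 6 (142564837 to 142571614 and 142587862 to 142702315, both on the minus strand), encode the Kir6.1 and SUR2 subunits of the potassium channel that closes with ATP, and both are used as pericyte markers. Kcnj8 had log2 CPM 2.57, 2.65 and 3.10 at E12.5 and 4.65, 4.72 and 4.81 at E13.5, a rise of 1.95 ± 0.31 (adjusted p = 0.00144). Abcc9 went from 3.73, 3.95 and 4.19 to 5.43, 4.99 and 5.60, a rise of 1.38 ± 0.24 (0.00362). The E13.5 libraries of both genes lay above all E12.5 libraries. Heyl, a target of Notch signals (chromosome 4, 123233556 to 123249875), went from 4.07, 4.21 and 3.88 to 5.27, 5.41 and 5.70, a rise of 1.40 ± 0.20 (0.0012). Pdgfrb, the receptor for platelet-derived growth factor B, rose by 0.35 ± 0.09 (0.0284), from 8.34, 8.32 and 8.15 to 8.64, 8.57 and 8.65. The remaining call was Akr1b7, an aldo-keto reductase found in renin lineage cells, with 1.35 (0.0285). In bulk samples a change in the share of a cell type and a change in RNA per cell cannot be told apart. Kcnj8, Abcc9 and Heyl kept their calls under all 14 alternatives, while that of Pdgfrb ended without any one of the 6 libraries (up to 0.116). The list had 3 or 4 rises without any 1 library, and 4 without E12.5 replicate 3, and it had 1 fall without E13.5 replicate 1. Abcc9 overlaps 5330439B14Rik on the other strand. The angiotensin receptor gene Agtr2, which is outside the lists and was chosen after its values were seen, went from 5.26, 5.53 and 5.85 to 6.99, 6.72 and 6.72 (1.27 ± 0.23, 0.00568). Its call held without any 1 library (up to 0.0393) and was lost with the macrophage, endothelial, erythroid and liver list means as covariates (0.0611).

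Several smooth muscle genes fell. Of 14 measured, 0 rose and 4 fell, with a median of -0.367 (-0.174 without E12.5 replicate 2 and -0.221 without E12.5 replicate 3). Myh11, the smooth muscle myosin heavy chain (chromosome 16, 14194535 to 14291372), had log2 CPM 1.58, 3.65 and 2.94 at E12.5 and 0.45, -0.29 and 0.43 at E13.5, from 30, 151 and 94 reads and from 9, 7 and 11 reads, a difference of -2.53 ± 0.47 (adjusted p = 0.0056). Tagln, which encodes the actin-binding protein SM22 (chromosome 9, 45929619 to 45936058), went from 5.25, 5.83 and 5.59 to 4.23, 3.94 and 3.79, a difference of -1.57 ± 0.30 (0.00759). Acta2, smooth muscle alpha-actin, went from 5.98, 6.47 and 6.50 to 5.28, 5.25 and 4.99, a difference of -1.14 ± 0.27 (0.0233). In all 3 genes each E13.5 library lay below each E12.5 library. Actg2, enteric smooth muscle gamma-actin, had 28, 69 and 56 reads at E12.5 and 4, 3 and 0 at E13.5 (-4.11 ± 0.83, 0.00876). Actc1, cardiac actin, which stands in the skeletal muscle list, had 11, 31 and 48 reads and then 2, 2 and 1 (-3.13 ± 0.81, 0.031). The fitted differences of both depend on the 0.5 added to each count. Of the smooth muscle list 3 members fell without E12.5 replicate 3, 2 without E12.5 replicate 2 and 1 without E13.5 replicate 3. The Tagln call ended without E13.5 replicate 3 (0.0512), that of Actg2 without E12.5 replicate 2 or E13.5 replicate 3 (up to 0.0721), and those of Acta2 and Actc1 without E12.5 replicate 2 or 3 or E13.5 replicate 2 or 3 (up to 0.11 and 0.138). Tagln overlaps Pcsk7 on the other strand.

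Of 13 cartilage and bone genes 0 rose, 3 fell and 10 were not called. Beside Col9a1, those that fell were the transcription factor genes Twist1, with log2 CPM 7.07, 7.14 and 6.74 at E12.5 and 6.35, 6.27 and 6.43 at E13.5 (-0.64 ± 0.16, adjusted p = 0.0256), and Prrx1, with 7.58, 7.43 and 7.28 and then 7.18, 6.73 and 6.46 (-0.64 ± 0.17, 0.034). Of 11 genes of the ureteral mesenchyme, which forms the muscle coat of the ureter, Tbx2 rose by 0.53 (0.0265) and Tbx18 fell by 0.60 (0.0372). Hoxa5 was the 1 of 33 Hox genes called, with a fall of 0.49 (0.0388), a share no higher than the 3.96% over all genes. Without E12.5 replicate 3, 4 Hox genes fell, and without any other library 0 did. Without E12.5 replicate 1 or 2 or E13.5 replicate 2 or 3 the calls of Twist1 and Prrx1 ended (up to 0.129 and 0.197), and the cartilage list had 1 fall in each of these 4 fits. The Tbx18 and Hoxa5 calls ended without any library except E12.5 replicate 3 (up to 0.209 and 0.181), and that of Tbx2 without E12.5 replicate 2 or 3 or E13.5 replicate 2 or 3 (0.114).

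Matrix genes moved in part. Of 35 glycoproteins and proteoglycans 5 rose and 1 fell, with a median difference of 0.236 (0.127 without E12.5 replicate 1 and 0.133 without E13.5 replicate 1, and -0.105 in CD1), and none of 21 collagen genes was called, although 16 had a positive difference. Fbln2, fibulin 2, had log2 CPM 5.44, 5.53 and 6.23 at E12.5 and 7.11, 7.02 and 6.74 at E13.5 (1.22 ± 0.31, adjusted p = 0.0294), and Bgn, biglycan, rose by 0.57 ± 0.16 (0.0479). Ogn and Postn belong here too, with Ltbp4, a binding protein of latent TGF-beta (0.88, 0.0485). Efemp1, fibulin 3, fell from 5.93, 6.25 and 6.10 to 5.20, 4.93 and 4.37, a difference of -1.26 ± 0.26 (0.0105). Col14a1 had the smallest p among collagens (1.24 ± 0.39, 0.0706). Among 18 genes of collagen processing 2 rose and 1 fell: Timp3, a tissue inhibitor of metalloproteinases, went from 5.68, 5.87 and 5.99 to 7.23, 7.12 and 6.94 (1.25 ± 0.23, 0.00606), Adamts2, a procollagen protease, rose by 1.55 (0.0286) and Bmp1, another, fell by 0.31 (0.0294). Timp3 kept its call without any 1 library but not under all 14 alternatives, and it lies in Syn3 on the other strand. The matrix list had 7 rises without E12.5 replicate 3, 1 without E13.5 replicate 1 or 2 and 0 without E12.5 replicate 1 or 2 or E13.5 replicate 3. Calls ended for Fbln2, Adamts2 and Bmp1 without any library except E12.5 replicate 3 (up to 0.147), for Bgn without any one of the 6 (0.182) and for Efemp1 without E12.5 replicate 2 or E13.5 replicate 3 (0.0824).

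Insulin-like growth factor binding proteins were the group with the most rises for its size after the pericyte list, with 4 of 13 genes higher and 0 lower. These proteins bind the growth factors outside the cell. Igfbp5 (chromosome 1, 72857932 to 72874884) had log2 CPM 9.04, 9.20 and 9.57 at E12.5 and 10.58, 10.40 and 10.37 at E13.5, a rise of 1.18 ± 0.24 (adjusted p = 0.0105). Igfbp3 went from 6.08, 6.26 and 6.63 to 7.33, 7.31 and 7.25 (0.98 ± 0.20, 0.00876) and Igfbp7 from 2.83, 3.31 and 3.80 to 4.96, 5.16 and 5.10 (1.76 ± 0.34, 0.00759). In all 4 genes, Igfbp6 included, E12.5 replicate 3 was the highest E12.5 library and lay below the E13.5 libraries. The list median was -0.00585 (-0.0507 to 0.00839 without each library), with 6 of 13 differences positive. Without E12.5 replicate 1 the calls of Igfbp3 (0.0554) and Igfbp5 (0.0585) ended, that of Igfbp5 also without replicate 2, and 4 members were called without E12.5 replicate 3. Igfbp7 overlaps Polr2b on the other strand.

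Signals toward the ureteric bud changed in the FGF and GDNF list, where 3 of 18 genes rose and 0 fell. Gdnf, the ligand that drives bud outgrowth through Ret (chromosome 15, 7810846 to 7837575), had log2 CPM 6.64, 6.76 and 6.84 at E12.5 and 7.77, 7.71 and 7.76 at E13.5, a rise of 1.00 ± 0.21 (adjusted p = 0.0132). The Sprouty genes, feedback inhibitors of receptor tyrosine kinases, rose together: Spry4 from 5.20, 5.44 and 5.21 to 6.24, 5.87 and 6.11 (0.79 ± 0.12, 0.00144), and Spry1 from 6.09, 6.01 and 5.95 to 6.48, 6.46 and 6.50 (0.46 ± 0.09, 0.00789). Both kept their calls without any 1 library, and Spry4, but not Spry1, kept it under all 14 alternatives. Gdnf is also a nephron progenitor gene. Of 14 nephron progenitor genes it was the 1 that rose, Wt1 fell by 0.42 (0.0479), and Six2, their defining transcription factor, had 2.47, 2.88 and 2.60 and then 3.32, 3.93 and 3.98 (1.09 ± 0.63, 0.352). Without Gdnf, the summed CPM of the other 13 members of that list was 376.6, 394.1 and 339.4 at E12.5 and 346.7, 370.2 and 332.8 at E13.5, so the stages overlapped in that sum. Wt1, with 2586, 3046 and 2451 reads at E12.5 against 56, 88 and 74 for Six2, weighs heavily in it. The mean log2 CPM over all 14 members was 2.796, 3.066 and 3.443 at E12.5 and 3.771, 3.867 and 3.736 at E13.5, without overlap. The list median was 0.704, with 10 of 14 differences positive. The part of nephron progenitor RNA in the Gdnf rise was not tested. The Gdnf call ended without E12.5 replicate 1 or 2 or E13.5 replicate 3 (up to 0.0595), and that of Wt1 without any library except E12.5 replicate 3 (0.193).

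In the Wnt pathway, which acts through beta-catenin, 2 of 19 target genes rose and 0 fell, with 16 positive differences, and none of 21 ligands and receptors was called. Dkk1, a secreted Wnt antagonist and itself a target (chromosome 19, 30545863 to 30549665), had log2 CPM 4.46, 3.95 and 3.94 at E12.5 and 5.13, 5.65 and 5.72 at E13.5, a rise of 1.39 ± 0.21 (adjusted p = 0.00144). It kept its call under all 14 alternatives. Ccnd1, cyclin D1, went from 7.65, 7.71 and 7.97 to 8.53, 8.37 and 8.44 (0.68 ± 0.15, 0.0166), and its call ended without E12.5 replicate 1 or 2 or E13.5 replicate 3 (up to 0.078).

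The BMP and TGF-beta list had 2 rises and 4 falls among 25 genes. Bmp5, a ligand, went from 4.29, 4.73 and 4.38 to 3.88, 3.47 and 3.34 (-0.90 ± 0.21, adjusted p = 0.0195), and Bmper, a modulator that binds BMPs, from 7.16, 7.17 and 6.95 to 6.76, 6.63 and 6.23 (-0.55 ± 0.13, 0.0188). The TGF-beta ligands moved in opposite directions: Tgfb2 fell by 0.49 ± 0.13 (0.0353) and Tgfb3 rose by 0.56 ± 0.14 (0.0294). The receptor gene Tgfbr1 fell by 0.33 (0.0461) and the ligand gene Bmp3 rose by 1.65 (0.0397). Without E12.5 replicate 2 or E13.5 replicate 3 no member of this list was called. The calls of Bmp5 and Bmper ended in those fits, that of Bmp5 also without E13.5 replicate 2 and that of Bmper without E12.5 replicate 1 (up to 0.112 and 0.13). The Tgfb2 call ended without any library except E13.5 replicate 1 (0.156) and that of Tgfb3 without any except E12.5 replicate 3 (0.115).

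Of 10 Hedgehog genes 2 rose and 2 fell. Hhip, a target that binds and blocks the ligands, had 0, 2 and 16 reads at E12.5 and 44, 31 and 18 at E13.5 (3.92 ± 1.04, adjusted p = 0.0365), with E12.5 replicate 3 close to E13.5 replicate 3. Gas1 fell, as given above, and so did Gli3, a transcription factor of the pathway, by 0.50 ± 0.12 (0.021). In the Notch list, 2 of 13 genes rose, Heyl and the receptor gene Notch1 (0.66 ± 0.18, 0.0412), and the median was 0.596. Without E12.5 replicate 1 that median was 0.0382, and in CD1 the list had 0 rises, 1 fall and a median of -0.0612. Calls ended for Hhip and Notch1 without any library except E12.5 replicate 3 (up to 0.177 and 0.156) and for Gli3 without E12.5 replicate 1 or 2 or E13.5 replicate 2 or 3 (0.125).

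Retinoic acid genes moved in both directions, with 2 of 15 higher and 2 lower, against 2.08% and 1.88% of all genes. Aldh1a2, which makes retinoic acid in the stroma, had log2 CPM 10.38, 10.24 and 10.29 at E12.5 and 10.69, 10.79 and 10.85 at E13.5, and its difference of 0.47 ± 0.17 missed the threshold (adjusted p = 0.11). Ecm1, a secreted protein regulated by retinoic acid in renal stroma, went from 7.20, 7.18 and 7.29 to 7.71, 7.97 and 8.03 (0.68 ± 0.13, 0.00788). Crabp1, the cellular retinoic acid-binding protein, fell from 9.07, 8.90 and 8.70 to 8.33, 8.44 and 8.11 (-0.60 ± 0.14, 0.0212) and Rdh10, which makes retinaldehyde, fell by 0.56 ± 0.15 (0.0358). Without E13.5 replicate 3 no member was called (Ecm1 0.0551). The Crabp1 call also ended without E12.5 replicate 1 or 2 (up to 0.12) and that of Rdh10 without any library except E13.5 replicate 1 (0.132).

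More guidance genes fell than rose. Of 31 semaphorin and axon guidance genes, 2 rose and 7 fell. Epha7, an ephrin receptor gene (chromosome 4, 28813131 to 28967499), had log2 CPM 7.37, 7.30 and 7.12 at E12.5 and 6.46, 6.46 and 6.14 at E13.5 (-0.91 ± 0.16, adjusted p = 0.00456). Its relatives Epha4, which went from 5.89, 5.98 and 6.16 to 5.61, 5.20 and 4.98 (-0.75 ± 0.15, 0.00788), and Epha3, from 5.41, 5.42 and 5.11 to 4.38, 4.05 and 3.98 (-1.17 ± 0.24, 0.0105), fell too. Each E13.5 library of these 3 genes lay below each E12.5 library. Robo1, a receptor for Slit proteins, fell by 0.54 ± 0.12 (0.0167), and the other falls were in Unc5c (-0.46), Sema5a (-0.52) and Nrp2 (-1.21). Those that rose were ligands, Ntn1 and Sema3a (0.73 ± 0.20, 0.0453). Falls numbered 6 and rises 4 without E12.5 replicate 3, and 1 and 0 without E13.5 replicate 3. Epha7 kept its call under all 14 alternatives. Calls ended without E13.5 replicate 3 for Epha4 (0.0661), also without E12.5 replicate 2 for Epha3 (0.0639) and Robo1 (0.0945, and without E13.5 replicate 2), and without any library except E12.5 replicate 3 for Sema3a (0.16).

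Of 17 vascular growth factor genes 2 rose and 2 fell. Vegfc, a ligand of lymphatic growth, went from 4.69, 4.87 and 4.68 to 3.92, 3.87 and 3.42 (-1.01 ± 0.27, adjusted p = 0.0359), and Angpt2, angiopoietin 2, from 2.64, 2.91 and 3.10 to 4.16, 4.03 and 4.02 (1.19 ± 0.33, 0.045). The stages did not overlap in either gene. Cxcl12 and Sema3a, given above, are the remaining members called. No member of the list was called without E12.5 replicate 1 or 2 or E13.5 replicate 2 or 3, and 2 rose and 1 fell without E12.5 replicate 3. The Vegfc call ended without any library except E13.5 replicate 1 (up to 0.177) and that of Angpt2 without any one of the 6 (0.147). The angiopoietin receptor gene Tek, an endothelial marker, had 0.79 ± 0.44 (0.326).

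**Figure D3:**
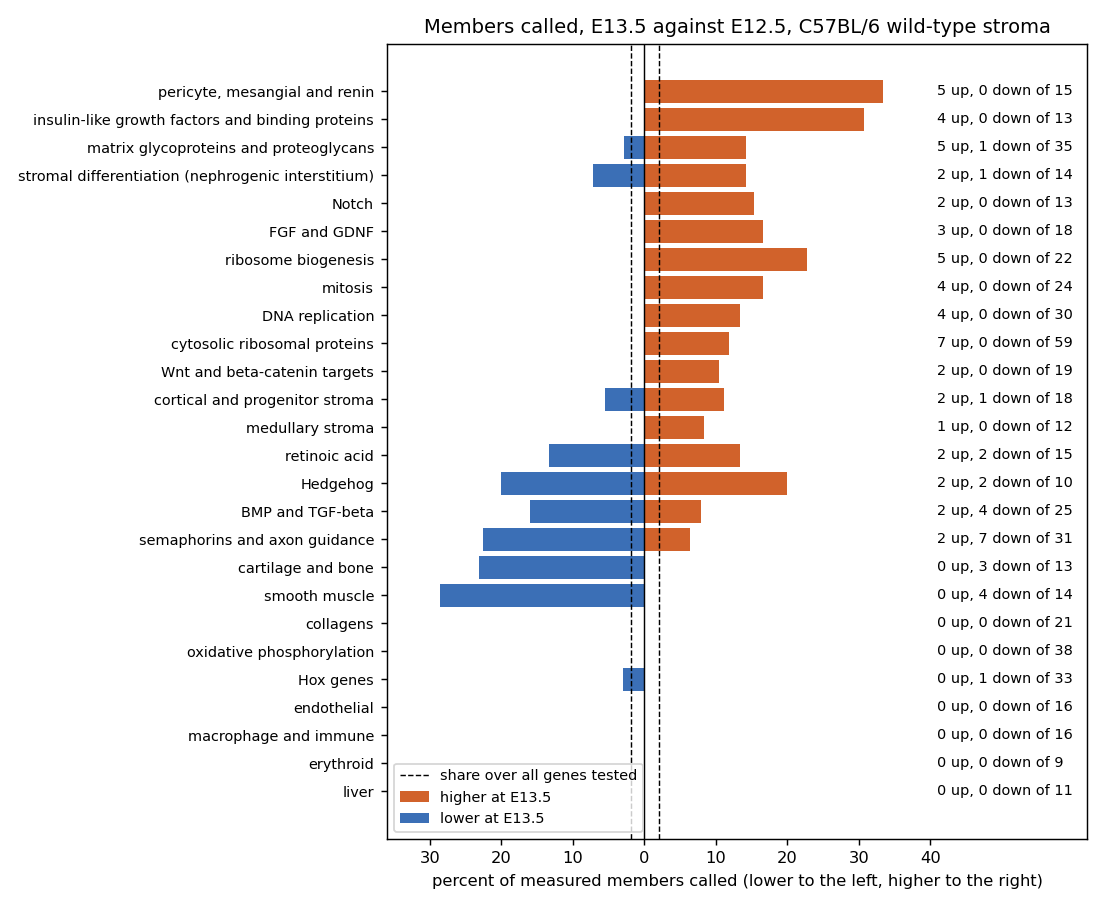
Percent of the measured members of 26 gene lists called higher (right) or lower (left) at E13.5, with the counts at the right margin and dashed lines at the shares over all genes tested (2.08% and 1.88%). Pericyte genes lead on the right with 5 of 15 and smooth muscle genes on the left with 4 of 14, and collagens, oxidative phosphorylation and the endothelial, macrophage, erythroid and liver lists have no call.

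A part of the growth and cell cycle genes rose, by small amounts. Of 22 ribosome biogenesis genes 5 rose, 0 fell and 20 had a positive difference, with a median of 0.215. Nhp2, a protein of H/ACA small nucleolar RNA complexes, went from 5.64, 5.65 and 5.71 to 6.11, 6.31 and 6.33 (0.59 ± 0.10, adjusted p = 0.00463), and Ncl, nucleolin, from 10.19, 10.17 and 10.13 to 10.47, 10.41 and 10.51 (0.30 ± 0.06, 0.0105). The others were Nop58 (0.33, 0.0161), Gnl3 (0.57, 0.0245) and Npm1 (0.29, 0.0322). Of 59 cytosolic ribosomal protein genes 7 rose and 0 fell, with a median of 0.236 and 54 positive differences, among them Rplp1 (0.42, 0.00788), Rpl18 (0.47, 0.0134), Rps16 (0.34, 0.0193) and Rpl4 (0.25, 0.0232). Each of these 4 has at least 1 near-identical locus elsewhere, so their counts are uncertain. Of 30 DNA replication genes 4 rose (Mcm7, Ung, Tyms and Mcm5, by 0.27, 0.43, 0.30 and 0.22), 0 fell and 28 had a positive difference, with a median of 0.108. Of 24 mitosis genes 4 rose, 0 fell and 21 were positive: Cdc20 (0.39, 0.0163), Aurkb (0.37, 0.0333), Ccna2 (0.29, 0.0496) and Ccnb2 (0.34, 0.0496). Mki67, which marks cycling cells, had 0.04 ± 0.11 (0.895). Trp53inp1, a gene induced by p53, fell from 5.52, 5.62 and 5.45 to 4.86, 4.99 and 4.67 (-0.69 ± 0.12, 0.00471). None of 38 oxidative phosphorylation genes was called, and 36 were positive, with a median of 0.147. Nhp2 and Trp53inp1 kept their calls under all 14 alternatives. The calls of Ncl, Nop58, Gnl3, Rplp1, Rpl18, Rps16, Rpl4, Mcm7, Ung, Tyms, Mcm5, Cdc20, Aurkb, Ccna2 and Ccnb2 ended without E13.5 replicate 3, and all of these but Ncl, Rplp1 and Rpl18 also without at least 1 other library (up to 0.256, for Mcm5). Tyms has 19 near-identical loci and Mcm7 has 1. Without E13.5 replicate 3 the replication, mitosis and ribosomal protein lists had no call and ribosome biogenesis 1, and without E12.5 replicate 3 the counts were 0, 1, 4 and 4. Without E13.5 replicate 2 they were 0, 0, 2 (with 1 ribosomal protein gene lower) and 3. Without E12.5 replicate 1 they were 3, 1, 5 and 3, and without E12.5 replicate 2 they were 1, 0, 2 and 3. Without E13.5 replicate 1, the least deep library, they were 6, 4, 11 and 5.

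Among imprinted growth genes, Mest rose from 11.65, 11.61 and 11.71 to 12.08, 12.12 and 12.21 (0.47 ± 0.09, adjusted p = 0.00788) and Nnat, neuronatin, fell from 8.83, 8.63 and 8.36 to 7.75, 8.03 and 7.79 (-0.75 ± 0.15, 0.0081), and the other 17 of 19 were not called. None of 13 heterochronic genes, which time developmental transitions, was called. The chromatin protein gene Hmga2 had 10.54, 10.52 and 9.55 at E12.5 and 9.29, 9.58 and 9.48 at E13.5 (-0.76 ± 0.24, 0.0756), with E12.5 replicate 3 at the level of the E13.5 libraries. The calls of Mest and Nnat ended without E13.5 replicate 3 (up to 0.0548 and 0.0552), that of Nnat also without E12.5 replicate 1, and Hmga2 was called in 1 of the 6 such fits, the one without E12.5 replicate 3.

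Calls in the other lists were as follows. Of 18 D cyclins, Myc genes and inhibitors of the cell cycle, 2 rose and 2 fell, where beside Ccnd1 and Trp53inp1 the antiproliferative gene Btg2 rose by 0.63 (adjusted p = 0.0294) and Mycl fell by 0.44 (0.0491). Of 22 immediate early and stress genes, which respond to cell handling as well as to growth signals, 2 rose, Btg2 and Ier2 (0.58, 0.0473). Of 14 genes of the differentiating nephron 1 rose (Ccnd1) and 1 fell. None of 16 Hippo, 25 glycolysis and hypoxia or 18 cholesterol synthesis genes was called. Dlk1, a Notch-related membrane protein of fetal mesenchyme, had 7.84, 7.81 and 9.16 and then 8.92, 8.88 and 8.61 (0.53 ± 0.28, 0.301), with E12.5 replicate 3 the highest of the 6. The renin gene Ren1 was not analysed here. The Btg2 call ended without any library except E12.5 replicate 3 (up to 0.153), and those of Ier2 and Mycl without any one of the 6 (0.164 and 0.177).

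Dnm3os, a long noncoding RNA that is the precursor of the miR-199a and miR-214 microRNAs, was lower at E13.5. It lies on chromosome 1 (162217623 to 162225550, plus strand) within Dnm3, which runs on the other strand, and was chosen after its values were seen. Its log2 CPM was 5.79, 5.73 and 5.41 at E12.5 and 4.51, 4.81 and 4.27 at E13.5, a fall of 1.11 ± 0.21 (adjusted p = 0.00579), and the stages did not overlap. Dnm3 itself had 1.63, 1.34 and 1.86 and then 0.45, 0.05 and 2.01 (-0.77 ± 0.45, 0.357). The mature microRNAs were not measured. They are shown because they are what the precursor carries, from RefSeq on GRCm38.p6, 5′ to 3′, with the seed (bases 2 to 8), which pairs with targets, in capitals.
mmu-miR-199a-5p: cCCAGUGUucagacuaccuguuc
mmu-miR-199a-3p: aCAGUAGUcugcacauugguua
mmu-miR-214-5p: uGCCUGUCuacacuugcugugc
mmu-miR-214-3p: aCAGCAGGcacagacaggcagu
These 4 seeds differ from each other, and the 4 microRNAs lie at chr1:162217844-162217866, chr1:162217883-162217904, chr1:162223397-162223418 and chr1:162223438-162223459 on the plus strand. The Dnm3os call ended without E13.5 replicate 3 (0.0503), and in CD1 its difference was -0.42 (0.264).

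Promoters were searched for 8 motifs from 250 bases before to 50 after the start, in the RefSeq promoters of 212 genes that rose, 198 that fell and 10739 of all genes tested. The CArG box, the binding motif of serum response factor, was in 2.83% of promoters of genes that rose, 3.54% of those that fell and 1.56% of all. For TTTNGCGC, an E2F motif, the shares were 2.36%, 2.53% and 2.81%, and for CCAAT 43.4%, 46% and 42.7%. The shares for TTTGAA were 17%, 12.1% and 13.8%, for TGACGTCA 3.77%, 3.03% and 3.53% and for CTTTGAT 1.89%, 3.03% and 2.98%. CACGTG was in 10.4%, 7.58% and 11.6%, and TGANTCA in 4.72%, 8.08% and 5.73%. Both strands were searched, and a match is a description of the sequence, not a site of binding. A promoter of Actc1, which fell, and one of Fhl2, which rose, are shown because both hold a CArG box (capitals), with Mcm5 for TTTNGCGC, where matches on both strands overlap and all their bases are in capitals.
Actc1 (chr2:114052826-114053125, minus strand): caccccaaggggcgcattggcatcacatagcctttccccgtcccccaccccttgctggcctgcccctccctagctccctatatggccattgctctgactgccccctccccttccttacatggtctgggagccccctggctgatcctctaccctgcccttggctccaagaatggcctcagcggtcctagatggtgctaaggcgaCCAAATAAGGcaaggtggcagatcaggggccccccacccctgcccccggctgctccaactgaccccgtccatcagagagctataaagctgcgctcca
Fhl2 (chr1:43163912-43164211, minus strand): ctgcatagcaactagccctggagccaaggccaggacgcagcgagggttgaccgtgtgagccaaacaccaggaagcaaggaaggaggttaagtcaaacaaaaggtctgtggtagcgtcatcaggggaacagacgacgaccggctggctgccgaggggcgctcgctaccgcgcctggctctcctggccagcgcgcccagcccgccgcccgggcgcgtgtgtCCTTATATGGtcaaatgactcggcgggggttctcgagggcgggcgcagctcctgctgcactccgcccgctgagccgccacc
Mcm5 (chr8:75109259-75109558, plus strand): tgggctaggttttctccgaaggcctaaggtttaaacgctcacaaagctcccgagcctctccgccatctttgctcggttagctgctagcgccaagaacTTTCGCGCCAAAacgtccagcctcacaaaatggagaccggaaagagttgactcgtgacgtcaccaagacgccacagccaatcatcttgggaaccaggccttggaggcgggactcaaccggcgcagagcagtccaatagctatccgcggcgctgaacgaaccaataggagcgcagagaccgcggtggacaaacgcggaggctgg
The matches start at -47 in Actc1, at -31 in Fhl2 and at -153 and -149 in Mcm5, counted from the start site. A second promoter of Fhl2 has its CArG box at -96. Genes that hold the CArG box thus rose (6) as well as fell (7).

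Wild-type CD1 stroma was set beside the C57BL/6 comparison, and the stage differences of the strains share no library. Their tests do share the estimate of spread, which comes from all 24 libraries, as do the tests in mutant stroma below. Calls shared between comparisons are therefore not independent. Limma called 748 genes there (5.42%), 334 higher (2.42%) and 414 lower (3%). Of the 287 genes that rose in C57BL/6, 271 had the same sign in CD1 (94.4%, against 68.1% of all genes with a positive difference in C57BL/6), and 112 were called higher. These 112 are 39% of the C57BL/6 rises and 33.5% of the CD1 rises. Of the 259 that fell, 249 had the same sign (96.1%, against 66.8%) and 137 were called lower, 52.9% of the C57BL/6 falls and 33.1% of those in CD1. Across the 13803 genes the stage differences of the strains had a Pearson r of 0.431, given as a description, and 0.32 without C57BL/6 E12.5 replicate 3. Rises called in both strains included Igfbp6 (3.26 in CD1, adjusted p = 0.0306), Igfbp5 (0.94, 0.0248), Gdnf (0.89, 0.0171) and Ntn1 (0.90, 0.0106). Falls called in both included Tbx1 (-2.69, 0.000242), Col9a1 (-2.76, 0.000204), Prdm6 (-2.74, 4.52e-05), Myh11 (-2.69, 0.00171), Tagln (-1.60, 0.00373), Epha7 (-1.19, 0.000212) and Scube1 (-1.16, 4.52e-05). The smooth muscle list had 0 rises and 6 falls of 14 in CD1, and the cartilage list 0 and 3 of 13. Rises with 0 falls were also found in CD1 for DNA replication (7 of 30), mitosis (4 of 24) and ribosome biogenesis (7 of 22). The same held for the FGF and GDNF list (2 of 18) and, with fewer rises than in C57BL/6, for cytosolic ribosomal proteins (2 of 59). Some other lists did not repeat their C57BL/6 counts. In CD1 the pericyte list had 2 rises and 2 falls (median 0.0779), the matrix list 0 and 4, the insulin-like growth factor list 2 and 2 and the Notch list 0 and 1. No member of the lists named in this paragraph was called in the test of the difference between strains. Kit, a receptor tyrosine kinase gene, and Foxp1, a forkhead gene, both chosen after their values were seen, fell by 0.98 and 1.17 in C57BL/6 (0.00305 and 0.00544) and by 0.96 and 1.10 in CD1 (0.00157 and 0.00431).

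Some of the strongest C57BL/6 rises did not pass the test in CD1. Kcnj8 had 0.60 there (adjusted p = 0.272), Abcc9 0.78 (0.0564), Heyl 0.53 (0.132), Dkk1 0.36 (0.357), Spry4 0.32 (0.124), Igfbp7 1.00 (0.0895) and Penk 1.63 (0.129). The difference of the stage effect between strains was tested for each gene, and none of these was called. For Kcnj8 the C57BL/6 effect exceeded that in CD1 by 1.35, with an adjusted p of 0.93. Over all genes that test called 2 (0.0145%), Cwc22 and Rpl35a, and 712 had an unadjusted p under 0.05. The CD1 libraries held other cells to different degrees as well, with summed CPM of the endothelial list from 80.12 to 1149 and of the ureteric bud list from 66.41 to 475.9, both highest in E13.5 replicate 1.

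**Figure D4:**
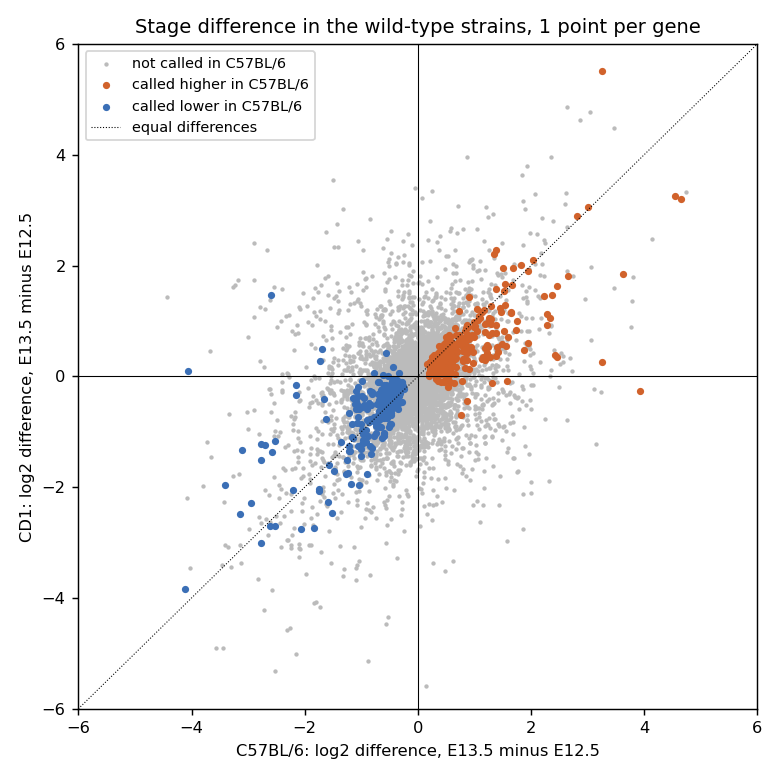
Log2 difference, E13.5 minus E12.5, in wild-type C57BL/6 (x axis) and CD1 (y axis), 1 point per gene, with genes called higher or lower in C57BL/6 in colour and a dotted line of equal differences. Of the coloured genes, 271 of 287 rises lie above the horizontal 0 line and 249 of 259 falls below it.

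**Figure D5:**
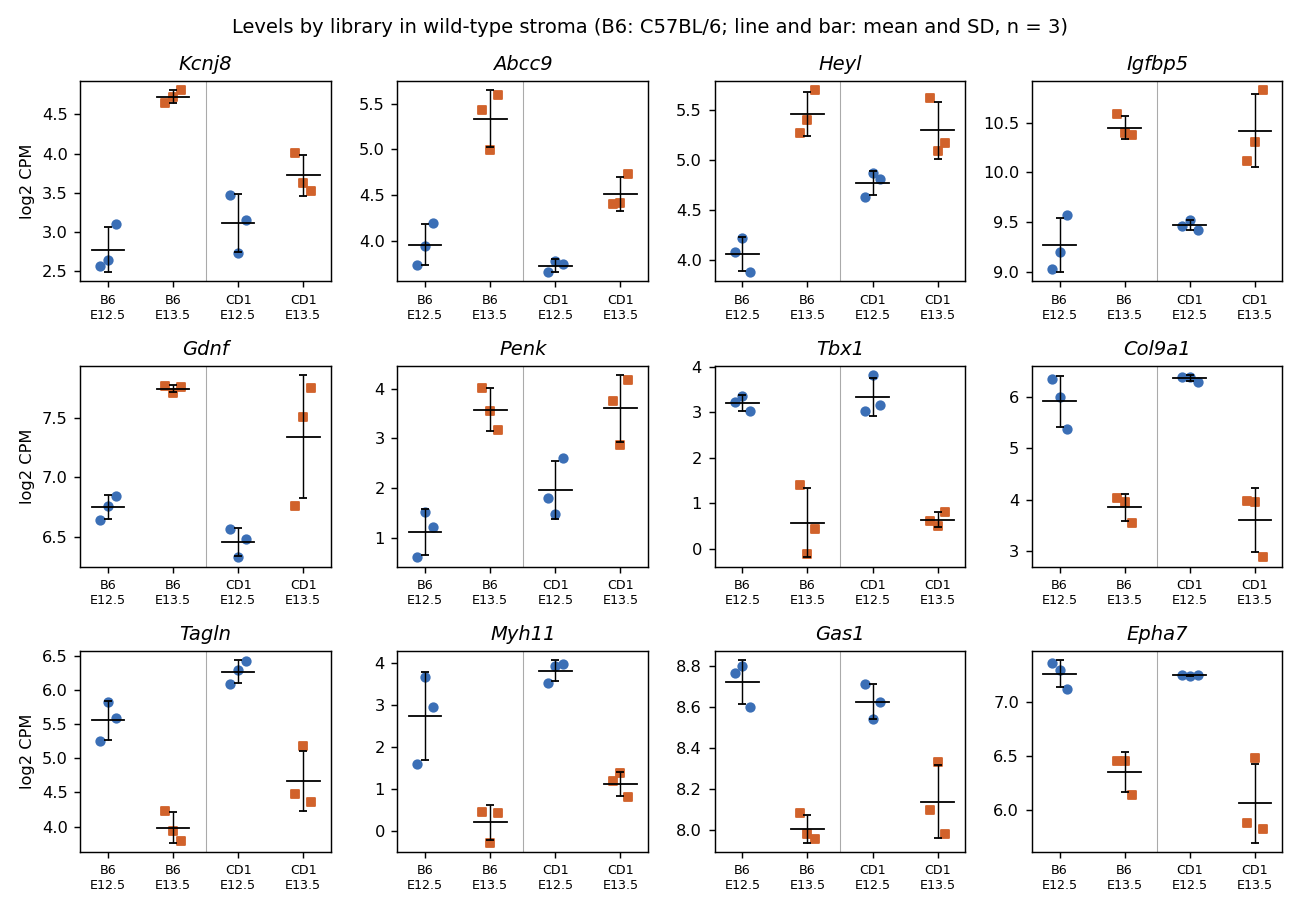
Log2 CPM by library for 12 named genes in C57BL/6 (B6) and CD1 wild-type stroma at both stages, with means and SD (n = 3). Kcnj8, Abcc9 and Heyl separate the stages more widely in C57BL/6 than in CD1, and the test of the difference between strains called none of them. Tbx1, Col9a1 and Myh11 fell in both strains.

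In mutant stroma most of these genes had the same sign over the same stage step. In β-catSD cells of the same strain, 38 genes were called (0.275%, with 0.0869% higher and 0.188% lower), and 90.9% of the C57BL/6 wild-type rises and 92.7% of the falls had the same sign, against 63.3% and 65% of all genes. Of the genes called, 8 rises and 10 falls were shared, among them Heyl (1.26 in β-catSD, adjusted p = 0.0123), Dkk1 (1.37, 0.0123) and Gas1 (-0.66, 0.0189). In β-catSO cells, where 980 genes were called (7.1%, with 3.01% higher and 4.09% lower), 82.2% and 83% had the same sign, against 60.8% and 61.4% of all genes, with 76 rises and 70 falls shared and 3 and 2 called in the opposite direction. Tagln had -0.98 in β-catSD (0.162) and 0.72 in β-catSO (0.17), and Myh11 -0.69 (0.637) and 0.62 (0.472). Called in all 4 comparisons were 2 falls, Efemp1 and Tgfb2, and no rise.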

How the data were processed

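RNA from sorted stromal cells was sequenced in 24 libraries, 8 groups of 3. The submitters' processing notes name HISAT2, HTSeq, limma and mm10. No source used here gives versions, the strand of counting or a filter on low genes. As deposited, each value is a log2 count per mega-read which, per the file's name and as its values bear out, the authors scaled by TMM and made with voom. Whole reads, after removal of the 0.5 added to each count, were recovered for 100% of values (tolerance 0.1 read), and gave depths of 6.18 to 21.2 Mreads.

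The log2 values were fitted with limma 3.58.1 (R 4.3.3) as 8 group means over 24 libraries (16 residual degrees of freedom, prior 6.43, trend on), with 2-sided tests, and p adjusted over all 13803 genes. Errors after ± are SE unless SD is stated. A filter (above 0 log2 CPM in 3 libraries) removed 0 genes. Named were the 12 largest called rises and falls with a mean log2 CPM above 1, no overlap between stages and a given symbol, the called members with the 4 smallest p of each of 44 lists (the 2 smallest where none was called), 16 fixed stromal and marker genes, and genes that differed between strains. Members and lists were chosen with earlier results of these data known. On simulated data for this comparison (13803 genes, 200 changed, 5 draws), 80% of 2-fold and 95.8% of 4-fold changes were recovered, with 4.04% false calls. The changes were placed in genes of mean log2 CPM above 1, and noise was drawn independently for each library. No library was made to stand apart, as E12.5 replicate 3 does, so these rates need not hold for the real libraries. Python 3.11.15, pandas 2.3.3 and matplotlib 3.10.9 were used for tables and figures. GENCODE M21 (GRCm38, the same assembly as mm10) gave positions for 99.1% of symbols. Near-identical loci were searched with BLAST 2.17.0, at 95% identity over 200 nt. Some genes of the lists are counted in them but not reported here by name.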

Additional observations from a re-analysis of the deposited data

Results flagged for a closer look

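The stage difference of 2 genes differed between C57BL/6 and CD1 by limma's test of that difference. For Cwc22, a splicing factor gene, log2 CPM was 5.38, 5.58 and 5.32 at E12.5 and 5.51, 5.57 and 5.77 at E13.5 in C57BL/6 (0.19, adjusted p = 0.293), and 6.17, 6.24 and 6.31 and then 5.46, 5.53 and 5.50 in CD1 (-0.74, 0.000204). The difference was 0.93 ± 0.14 (SE; adjusted p = 0.00601). Cwc22 has 7 near-identical loci, so its counts are uncertain.

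Rpl35a, a ribosomal protein gene, had 4.66, 4.86 and 4.58 and then 4.71, 4.98 and 4.83 in C57BL/6 (0.14, adjusted p = 0.876), and 2.15, 2.43 and 3.33 and then -2.74, -2.17 and -3.94 in CD1 (-5.58, 3.49e-09). The difference was 5.72 ± 0.52 (adjusted p = 2.07e-06). All 3 CD1 E13.5 libraries lay below all 9 others, while the C57BL/6 stages overlapped.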

How the results depend on the processing

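In C57BL/6, 546 genes were called. The count was 1048 with library quality weights, 184 with the macrophage, endothelial, erythroid and liver list means as covariates, 130 at 2-fold or more, and 83 to 605 without each library. It stayed within 1.5 times of 546 with the 6 libraries alone (486), the 12 wild-type libraries alone (453), voom weights on recovered reads (469), an added count of 1 (550), quantile normalization (482) and genes of mean log2 CPM above 1 (561). In CD1 the 748 calls became 301 with the covariates and 188 at 2-fold or more, and 290 to 785 without each library. The test of the difference between strains, with 2 calls, gave 1 with voom weights, 1 at 2-fold or more, 4 with quality weights, 9 with the covariates and 2 to 5 without each library. The r across strains, 0.431, was 0.5688 for genes of mean log2 CPM above 1 and 0.32 to 0.4305 without each library. The causes were not tested. Of the 97 named calls, none reversed sign in any alternative. In the fits that leave out 1 library this was fixed in advance for genes whose stages did not overlap. The planned count models were not run, since the deposited unit is log2 and the main test must fit it.

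The labels number the libraries 1 to 3 in each group. With a replicate block 578 genes were called in C57BL/6, 709 in CD1 and 3 in the test between strains, and 87 of the 97 named calls held. Deviations of same-numbered libraries had correlations of -0.136, 0.0552 and -0.0553, against -0.0754 to 0.143 for the other pairs, so the numbers do not show a pairing.

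Depth limits genes of few reads, such as Actg2, Actc1, Hhip and Igfbp6, where single reads set the level. The covariates are list means from the same libraries, and with 3 libraries in a group they take degrees of freedom from the test.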
